A study of Mus musculus with 2 samples.

Results

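The genes described here are 9 lysosomal proteases and 1 lysosomal membrane protein, measured in the myeloid cells of AT3 mouse mammary tumors. They were taken from a fixed list of 10 names, Ctsb, Ctsc, Ctsd, Ctsh, Ctsk, Ctsl, Ctss, Ctsz, Lgmn and Lamp1, out of 32285 genes in the count tables, and all 10 were found in both libraries. AT3 is a mammary carcinoma line. A dose of 500000 AT3 cells was placed in the mammary fat pad of female mice aged 6 to 12 weeks, and leukocytes were taken from the tumors on day 30. The study set out to learn what loss of Pgd, which encodes 6-phosphogluconate dehydrogenase of the pentose phosphate pathway, does to myeloid cells of the tumor. The control library came from Pgd fl/fl mice, labelled WT, and the other library from Pgd fl/fl LysMCre mice, labelled 6PGDKO, so both carried the floxed Pgd alleles. The control mice had no Cre. Each library pooled cells of 10 mice, so there was 1 library per genotype and no test between genotypes was possible. Cre, loss of Pgd, the loss of Lyz2 transcripts given below and the cell preparation cannot be told apart. The LysMCre allele sits in Lyz2 and drives Cre in macrophages, monocytes, neutrophils and some dendritic cells (DC). The sorting steps name CD45+ cells and also live CD11b+ cells, while T cells were plentiful in both libraries.

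The Pgd fl/fl library held 3728 barcodes and 27245625 unique molecular identifiers (UMIs, each a counted RNA molecule), and the Pgd fl/fl LysMCre library held 3014 barcodes and 28827045 UMIs. No barcode was shared, and 3565 and 2798 cells passed the filters. Lyz2 had 20357 UMIs in the macrophage-like cells of the control against 62 in those of Pgd fl/fl LysMCre mice, and Pgd had 655 and 140, which matched the labels. Macrophage-like cells numbered 519 and 468, monocyte-like cells 106 and 234, DC-like cells 188 and 265 and neutrophil-like cells 55 and 71, the Pgd fl/fl library always given first here and below. The macrophage-like cells fell into 5 subclusters, called here by a leading gene: Ighg2b, with 192 and 179 cells, Vcam1, with 194 and 109, P3h3, with 71 and 66, Gpnmb, with 50 and 70, and Retnla, with 12 and 44. The DC-like cells comprised Langerhans cell-like (100 and 146), mature (57 and 85) and type 1 cells (31 and 34). The 16 mast cell-like cells, all in Pgd fl/fl LysMCre, allowed no comparison. The leading genes of the Ighg2b subcluster included immunoglobulin genes, and those of the neutrophil-like cells included hemoglobin genes. Those of the Retnla subcluster held as many monocyte markers, 2 (F13a1 and Ear2), as macrophage markers, 2 (Folr2 and Mrc1). Those of the monocyte-like cells included the classical monocyte markers Chil3 and Plac8, but also the DC markers Cd209a and Ccl17 and the non-classical monocyte marker Ace. All 15 macrophage markers were detected in the macrophage-like cells of both libraries. Another 4 myeloid subclusters had no marker of their best-scoring type among their leading genes, or more markers of another type, and stayed unnamed.

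Lysosomal proteases are made as inactive precursors, sorted to the endosome and lysosome, and activated at low pH. In macrophages and DC they break down engulfed material, cut antigens into peptides, and trim the invariant chain that guards the groove of MHC class II. Cysteine cathepsins are held in check by cystatins, and transcription factors of the MiT/TFE family can bind an E-box-centred motif before many lysosomal genes. Among the endopeptidases, cathepsin S (Ctss) removes the invariant chain in antigen-presenting cells, cathepsin L (Ctsl) does so in thymic epithelium, and cathepsin K (Ctsk) is the collagen-degrading enzyme of osteoclasts. Cathepsin B (Ctsb) can also act as a dipeptidyl carboxypeptidase, cathepsin C (Ctsc) removes dipeptides and activates granule serine proteases, cathepsin H (Ctsh) is mainly an aminopeptidase and cathepsin Z (Ctsz) a carboxypeptidase. Cathepsin D (Ctsd) is an aspartic protease, legumain (Lgmn) cuts after asparagine and processes other cathepsins, and Lamp1 is a heavily glycosylated protein of the lysosomal membrane and no protease.

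The 10 genes lie on 8 chromosomes of the mouse genome (RefSeq, build GRCm38.p6, the sequence of mm10). Ctsk (chr3:95499210-95509387) and Ctss (chr3:95526786-95556405) are neighbours, 17398 bases apart. Ctsd lies at chr7:142375910-142387827, Ctsc at chr7:88278024-88315861, Ctsb at chr14:63122462-63145923, Ctsl at chr13:64361890-64370772, Ctsh at chr9:90054267-90076095, Ctsz at chr2:174427494-174439039, Lgmn at chr12:102394082-102439728 and Lamp1 at chr8:13159161-13175338. The end of Ctsb overlaps Fdft1 over 774 bases, Ctsz overlaps Nelfcd over 12 bases, and the pseudogene Hmgb1-ps5 lies within Ctss. How reads in those stretches were assigned was not examined.

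The RefSeq promoter table, which gives sequence from 250 bases before to 50 after a transcript start, had entries for 8 of the 10 genes. The E-box CACGTG, which reads the same on both strands, was present for 4 of these 8, Ctsd, Ctsl, Lamp1 and Lgmn. By entries it was in 4 of the 9 of these genes and in 7.15% of all 32851 promoters in the table. The matches of Lgmn and Ctsl lay before transcript starts that were not the outermost of the gene. The longer form with GT directly before and AC directly after the E-box was present for 0 of the 8 and in 0.326% of all promoters. The 100 bases before the start are shown for the 2 genes with the largest differences between the libraries in macrophage-like cells, Ctss and Ctsd, and for the membrane protein Lamp1, read 5′ to 3′ on the strand of the gene with each E-box in capitals. They are chr3:95526686-95526785 (plus strand) for Ctss, chr7:142387828-142387927 (minus strand) for Ctsd and chr8:13159061-13159160 (plus strand) for Lamp1.
Ctss: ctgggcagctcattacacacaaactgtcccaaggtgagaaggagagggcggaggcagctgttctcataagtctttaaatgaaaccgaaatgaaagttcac
Ctsd: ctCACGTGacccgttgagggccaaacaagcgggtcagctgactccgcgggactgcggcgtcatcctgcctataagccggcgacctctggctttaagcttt
Lamp1: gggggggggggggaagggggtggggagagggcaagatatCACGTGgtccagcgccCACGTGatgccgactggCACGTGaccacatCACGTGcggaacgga
The Lamp1 stretch held 4 E-boxes, the Ctsd stretch 1 and the Ctss stretch 0, and Ctsd had another E-box 245 bases before its start. These are matches of letters, and binding was not measured.

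Macrophage-like cells held the most transcripts of these genes. The 10 genes together made up 1.68% of all UMIs of the macrophage-like cells in Pgd fl/fl against 1.6% in Pgd fl/fl LysMCre, 0.672% and 0.719% in monocyte-like cells, 0.311% and 0.297% in DC-like cells and 0.300% and 0.282% in neutrophil-like cells. T cell-like cells, given here and below for comparison, had 0.0835% and 0.0982%. Their level is no floor of free RNA, since type 1 DC-like cells fell below it for Ctsd, Ctsl and Lamp1. Free RNA was not measured. Among 10 named subclusters, the summed share was highest in the P3h3 macrophage-like cells (2.08% and 1.75%) and the Gpnmb macrophage-like cells (2.03% and 1.83%) and lowest in type 1 DC-like cells (0.161% and 0.167%). The P3h3 cells were shallow, with a median of 3187 and 3278.5 UMIs a cell against 10870 and 10926.5 for all macrophage-like cells.

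The order of the subclusters was similar in both libraries, with Spearman's rho across the 10 subclusters from 0.89 for Ctsb to 1.00 for Ctss over the 9 genes other than Ctsk, as a description. In UMIs of the gene per 1000000 UMIs of the cells concerned (CPM), Ctss was highest in the P3h3 cells at 7772 and 4991 CPM, followed by the Vcam1 cells at 5818 and 4581 and the Ighg2b cells at 5796 and 4297. In Pgd fl/fl the Vcam1 and Ighg2b cells did not differ beyond their counting intervals. Monocyte-like cells had 2281 and 2233 CPM of Ctss, Retnla cells 1729 and 1846, Langerhans cell-like cells 1214 and 1157 and mature DC-like cells 866 and 725, in the same order in both libraries. Type 1 DC-like cells were lowest at 449 and 423 CPM, 17.3-fold and 11.8-fold below the P3h3 cells, and still above the T cell-like cells at 216 and 243 CPM.

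The Gpnmb cells, whose leading genes Gpnmb, Mmp12 and Atp6v0d2 include a V-ATPase subunit, were highest for Ctsb, Ctsd, Lgmn and Lamp1, though the counting intervals of Lgmn overlapped those of the Retnla cells in Pgd fl/fl, and those of Lamp1 overlapped those of the P3h3 cells in both libraries. They had 2271 and 2574 CPM of Ctsd, against 1361 and 1538 in the P3h3 cells, 855 and 1179 in the Ighg2b cells and 601 and 890.4 in the Vcam1 cells. Ctsd was spread more widely than Ctss, 159-fold and 64.3-fold between the highest and lowest subclusters, where the lowest, type 1 DC-like cells, had 14.3 and 40.0 CPM, below the T cell-like 149 and 166. Neutrophil-like cells had more Ctsd than monocyte-like cells in both libraries, 562 and 913 against 266 and 259.5 CPM. Ctsb reached 4924 and 4546 CPM in the Gpnmb cells and 157 and 198 in type 1 DC-like cells, the latter close to the T cell-like level of 128 and 168.

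Ctsl had the widest spread of the 9 genes, 189-fold and 86.7-fold between the highest and lowest subclusters. It reached 1157 and 571 CPM in the Retnla cells and 1062 and 661 in the Gpnmb cells, while 5 cells held 93.7% and 59.4% of the UMIs in the Retnla cells. In type 1 DC-like cells Ctsl had 3 and 4 UMIs, at 6.12 and 7.62 CPM below the T cell-like 17.9 and 10.6. Ctsz, by contrast, spanned 7.50-fold and 6.95-fold, from 3352 and 2902 CPM in the P3h3 cells to 447 and 417 in type 1 DC-like cells. Ctsh was also highest in the P3h3 cells at 1261 and 1142 CPM, and mature DC-like cells, with 633 and 512, had a level near that of monocyte-like cells at 639 and 674. Ctsc was highest in the Ighg2b cells at 1215 and 1375 CPM and lowest in neutrophil-like cells at 84.7 and 24.5 CPM, from 11 and 4 UMIs and at or below the T cell-like 96.0 and 115. Lamp1 differed within the DC-like cells, with 511 and 380.3 CPM in mature, 136 and 128 in Langerhans cell-like and 22.5 and 30.5 in type 1 cells, the last below the T cell-like 66.3 and 71.8. Ctsk was close to undetected, with 8 and 14 UMIs over all kept cells, and no fold is given for it.

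**Figure D1:**
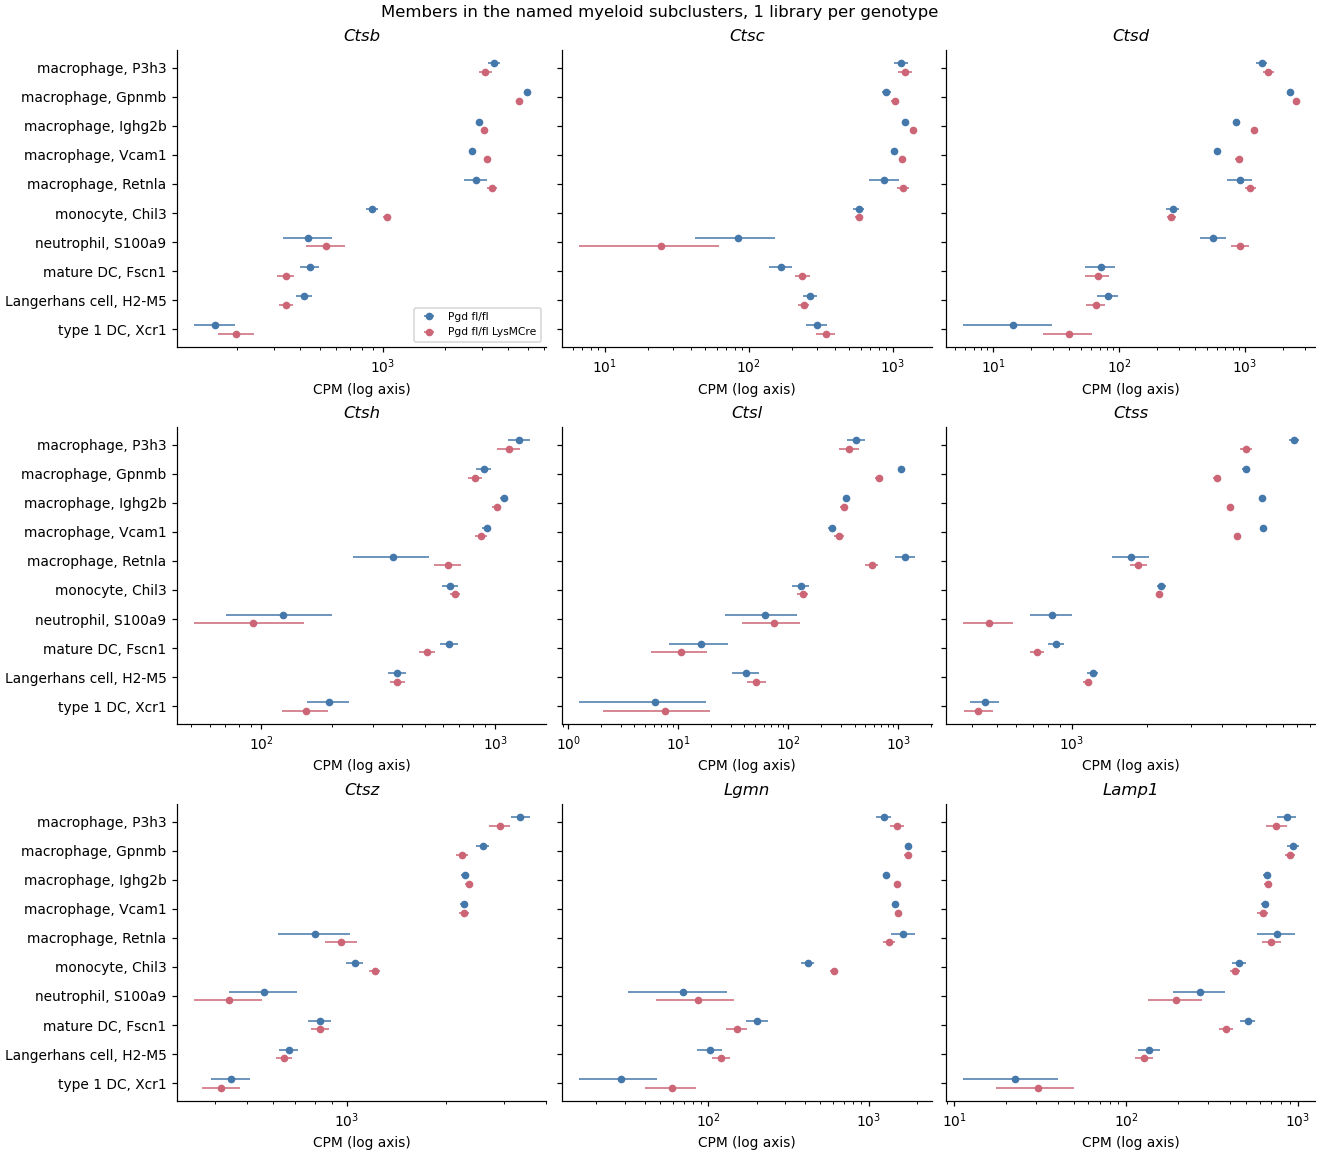
CPM on a log axis of 9 of the 10 genes (Ctsk, with 8 and 14 UMIs in all, is left out) in 10 named myeloid subclusters, blue for Pgd fl/fl and red for Pgd fl/fl LysMCre; points are 1 library each and bars are exact 95% Poisson intervals, which cover counting error only. Every macrophage-like subcluster lies above the monocyte-like cells except the Retnla cells for Ctss, Ctsz and Ctsh, and Ctss runs from 7772 CPM in the P3h3 cells down to 449 CPM in type 1 DC-like cells in Pgd fl/fl.

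In macrophage-like cells the 2 libraries differed most for Ctss and Ctsd, in opposite directions. Ctss had 32087 UMIs (5735 CPM) in Pgd fl/fl against 20839 (4148 CPM) in Pgd fl/fl LysMCre, a log2 ratio of Pgd fl/fl LysMCre over Pgd fl/fl of -0.47 (95% interval -0.49 to -0.44). The intervals of ratios are exact, conditional on the sum of the 2 counts, and cover counting error only. Ctsd had 5397 UMIs (965 CPM) and 6956 (1384 CPM), a log2 ratio of 0.52 (95% interval 0.47 to 0.57). With the 5 macrophage-like subclusters weighted equally, the Ctss ratio was -0.42 and the Ctsd ratio 0.28.

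The exopeptidases and Lgmn differed less. Ctsc had 1087 and 1228 CPM with a log2 ratio of 0.18 (95% interval 0.12 to 0.23), and Ctsb had 3101 and 3401 CPM with a log2 ratio of 0.13 (95% interval 0.10 to 0.16). Lgmn had 1415 and 1549.6 CPM, a log2 ratio of 0.13 (95% interval 0.09 to 0.18). Ctsh, at 993 and 918 CPM, and Ctsz, at 2347 and 2238 CPM, were slightly lower in Pgd fl/fl LysMCre, with log2 ratios of -0.11 and -0.07. Ctsl (413 and 395 CPM) and Lamp1 (698 and 709 CPM) had intervals that covered 0, with log2 ratios of -0.06 (95% interval -0.15 to 0.02) and 0.02 (95% interval -0.04 to 0.09). Ctsk had 1 and 3 UMIs.

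A gene was counted as different when its log2 ratio was at least 0.5 in size and its interval left out 0, over genes with at least 10 UMIs. By this rule 1 of the 9 genes with at least 10 UMIs, Ctsd, was higher and 0 were lower in macrophage-like cells, against 5.12% of 11514 genes higher and 3.45% lower. The Ctsd ratio was at least 0.5 in 3 of 11 alternative settings, and that of Ctss, just short of -0.5 here, was at or below it in 4 of 11. The median log2 ratio was 0.02 over the 9 genes, 0.08 over all 10 with Ctsk, and 0.05 over all genes tested. At these depths small ratios leave out 0 easily: among 1404 genes with at least 1000 UMIs, intervals lay above 0 for 32.4% and below 0 for 22.6%, while among the 10 genes they lay above 0 for 4 (Ctsb, Ctsc, Ctsd and Lgmn) and below 0 for 3 (Ctsh, Ctss and Ctsz). In that set of 1404 genes, 33 had a higher ratio than Ctsd and 27 a lower ratio than Ctss.

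**Figure D2:**
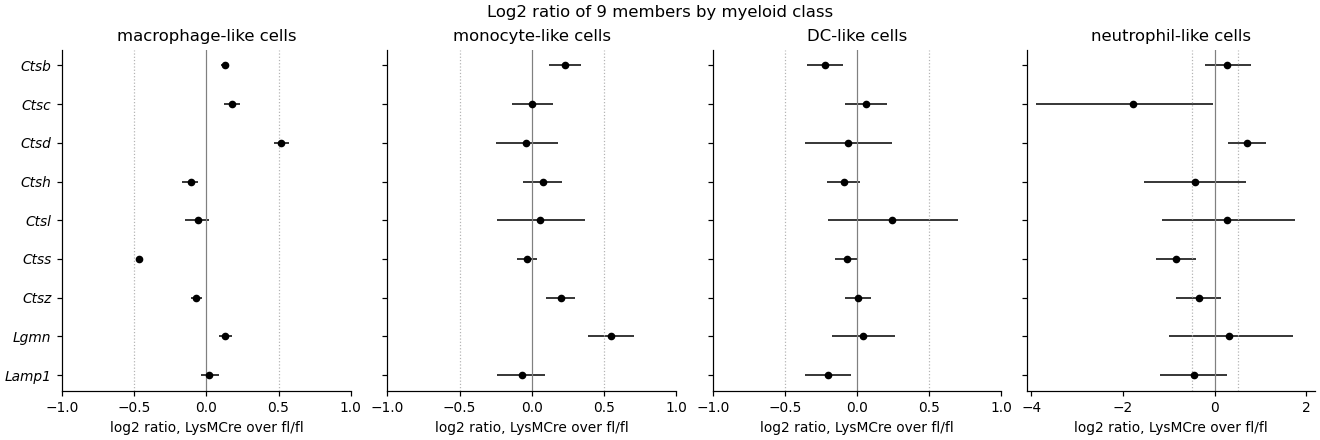
Log2 ratio of summed counts, Pgd fl/fl LysMCre over Pgd fl/fl, of 9 genes in 4 myeloid classes; bars are exact 95% intervals of counting error, dotted lines mark 0.5 in either direction, and the axis of the neutrophil-like panel is wider. In macrophage-like cells Ctsd lies at 0.52 and Ctss at -0.47, and in monocyte-like cells Lgmn lies at 0.55.

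The difference in Ctss was spread over the cells. The median cell had 5658 and 3741 CPM of Ctss, and the 5 cells with most Ctss held 3.10% and 4.77% of its UMIs. The median cell had 582 and 787 CPM of Ctsd and 2702 and 3104 CPM of Ctsb. The expected share of macrophage-like cells with a Ctsd UMI, after thinning each cell to 2000 UMIs, was 67.5% and 74.9% (91.5% and 92.7% unthinned), and 23.4% and 26.3% in T cell-like cells thinned likewise. Shallower cells, 23 and 34 macrophage-like, 1 and 10 monocyte-like and 62 and 51 T cell-like cells, were left out of thinned shares. For Ctss the thinned share was 99.5% and 98.4% (99.2% and 98.5% unthinned), against 31.7% and 37.3% in T cell-like cells, so the lower level was one of fewer UMIs a cell rather than of fewer cells with a UMI.

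**Figure D3:**
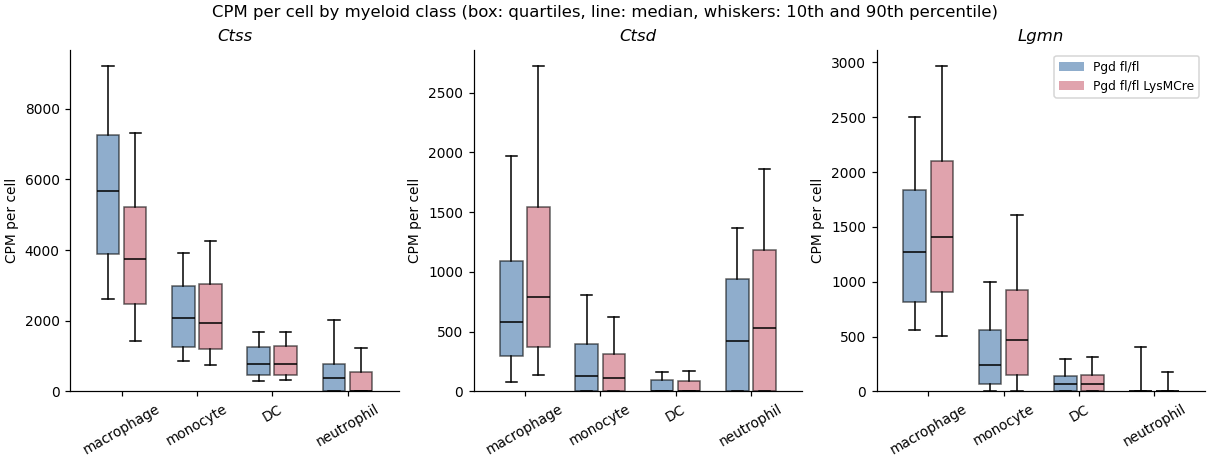
CPM per cell of Ctss, Ctsd and Lgmn by myeloid class, blue for Pgd fl/fl and red for Pgd fl/fl LysMCre; boxes span the quartiles of cells, lines are medians and whiskers reach the 10th and 90th percentiles. The Ctss box of macrophage-like cells is lower in Pgd fl/fl LysMCre (medians 5658 and 3741 CPM), and the boxes of both libraries overlap for each gene and class; cells of 1 library are not replicates.

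Ctss was lower in Pgd fl/fl LysMCre in 4 of the 5 macrophage-like subclusters. Its log2 ratio was -0.64 in the P3h3 cells, -0.43 in the Ighg2b cells, -0.39 in the Gpnmb cells and -0.34 in the Vcam1 cells, each with an interval below 0. In the Retnla cells it was 0.09 (95% interval -0.17 to 0.37). The Retnla cells had the fewest macrophage transcripts of the 5 subclusters, 11143 and 14346 CPM summed over the 15 macrophage markers, with 1 and 0 of the markers at 0, and 2168 and 1318 CPM of classical monocyte markers. In the P3h3 cells, where Ctss differed most, the macrophage markers also summed to less in Pgd fl/fl LysMCre, 59628 and 47301 CPM with Folr2 at 0 in both, and the part of this in the Ctss ratio was not tested.

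Ctsd was higher in Pgd fl/fl LysMCre in all 5 macrophage-like subclusters, by log2 ratios of 0.57 in the Vcam1 cells, 0.46 in the Ighg2b cells, 0.28 in the Retnla cells and 0.18 and 0.18 in the P3h3 and Gpnmb cells, though the intervals of the Retnla and P3h3 cells covered 0. The subclusters richest in Ctsd thus differed least. In the Ighg2b cells the median cell had 619 and 670.2 CPM, a smaller gap than in the summed counts, and 5 cells held 20.3% and 24.4% of the Ctsd UMIs. Ctsl had log2 ratios of -0.68 (95% interval -0.84 to -0.53) in the Gpnmb cells and 0.21 (95% interval 0.02 to 0.40) in the Vcam1 cells. Without the 5 cells of each library with most Ctsl, the ratio of the Gpnmb cells was -0.57 (95% interval -0.77 to -0.38). That of the Vcam1 cells was then 0.09, with an interval that covered 0 (95% interval -0.11 to 0.30). With the 5 subclusters weighted equally the Ctsl ratio over macrophage-like cells was -0.55, against -0.06 in the summed counts. The Ctsl ratio of the Retnla cells, which enters the equal weighting, was -1.02, with most UMIs in 5 cells as given above. Without those 5 cells of each library it turned to 1.28 (95% interval 0.10 to 2.77), from 6 and 80 UMIs. Ctsh in the Retnla cells had a log2 ratio of 0.78 (95% interval 0.22 to 1.38) from 30 and 216 UMIs, and Lgmn had 0.23 in the Ighg2b cells. The Lgmn ratio of the Retnla cells, -0.29 (95% interval -0.57 to -0.01), and the others in this subcluster rest on 12 cells in Pgd fl/fl.

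**Figure D4:**
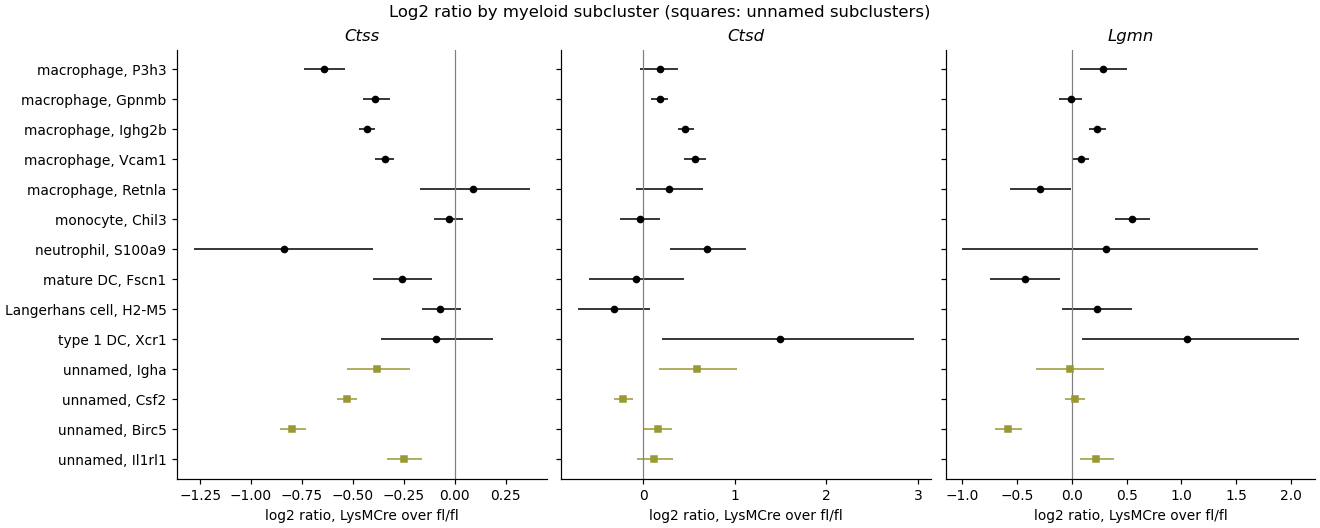
Log2 ratio, Pgd fl/fl LysMCre over Pgd fl/fl, of Ctss, Ctsd and Lgmn in each myeloid subcluster with cells in both libraries, circles for named and squares for unnamed subclusters; bars are exact 95% intervals of counting error, and each panel has its own axis. Ctss lies below 0 in all subclusters except the Retnla cells (0.09), while Ctsd and Lgmn lie on both sides of 0.

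In monocyte-like cells Lgmn was the gene that differed most, and Ctss and Ctsd did not differ beyond counting error. Lgmn had 417 UMIs (416 CPM) in Pgd fl/fl against 1327 (609.6 CPM) in Pgd fl/fl LysMCre, a log2 ratio of 0.55 (95% interval 0.39 to 0.71). The median cell had 245 and 469 CPM, and the expected share of cells with an Lgmn UMI at 2000 UMIs was 43.4% and 56.4% (75.5% and 82.1% unthinned), against 5.23% and 7.48% in T cell-like cells. The 5 cells with most Lgmn held 28.5% and 12.3% of its UMIs, and without them, 5 of 106 and 5 of 234 cells, the ratio was 0.80. Ctsb (894 and 1049 CPM) and Ctsz (1058 and 1216 CPM) were also higher in Pgd fl/fl LysMCre, by log2 ratios of 0.23 (95% interval 0.12 to 0.34) and 0.20 (95% interval 0.10 to 0.30). The intervals of Ctss, -0.03 (95% interval -0.10 to 0.04), Ctsd, -0.04 (95% interval -0.25 to 0.18), Ctsc, Ctsh, Ctsl and Lamp1 covered 0. The Ctsd ratio was not stable, from -0.46 (without cells with a lymphocyte UMI) to 0.19 over 8 alternative settings, and left its interval in 5. That of Ctss ranged from -0.09 to 0.23 and left its interval in 2. By the rule above 1 of the 9 genes was higher and 0 lower, against 3.79% and 3.26% of 9444 genes, and the median over the 9 was 0.06 against 0.02 over all genes tested. Lgmn stayed at or above 0.5 in 5 of 8 alternative settings, the lowest being 0.42 without cells that had a lymphocyte UMI. Among 451 genes with at least 1000 UMIs in these cells, 8 had a higher ratio than Lgmn. Macrophage markers summed to 7030 and 7073 CPM in the monocyte-like cells and classical monocyte markers to 4182 and 3492 CPM, with 1 and 0 of the 15 macrophage markers and 0 of the 10 monocyte markers at 0.

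In DC-like cells, in which Pgd itself differed less (log2 ratio -0.57), differences were small in the summed counts. Ctsb was lower in Pgd fl/fl LysMCre, at 376 and 322 CPM with a log2 ratio of -0.22 (95% interval -0.35 to -0.10), as was Lamp1 at 226 and 197 CPM with -0.20 (95% interval -0.36 to -0.04). Without the 5 cells of each library with most UMIs of the gene, both intervals covered 0. The ratios were then -0.10 (95% interval -0.24 to 0.03) for Ctsb and -0.14 (95% interval -0.31 to 0.03) for Lamp1. The other 7 genes with at least 10 UMIs had ratios between -0.09 (Ctsh) and 0.24 (Ctsl) with intervals that covered or reached 0, and Ctsk had 0 and 3 UMIs. Over 10 alternative settings the Ctsl ratio ranged from -0.08 to 0.90, at or above 0.5 in 4, and that of Lgmn from -0.08 to 0.67. By the rule 0 of the 9 genes were higher and 0 lower, against 3.73% and 2.76% of 11140 genes, and the median over the 9 was -0.06 against 0.01 over all genes tested. The difference in Lamp1 was carried by mature DC-like cells, with 511 and 380.3 CPM and a log2 ratio of -0.43 (95% interval -0.62 to -0.23), while Langerhans cell-like cells had -0.10 (95% interval -0.38 to 0.19). Ctsb was lower in both, with log2 ratios of -0.38 and -0.29. In mature DC-like cells Ctsc went the other way (167 and 236 CPM, log2 ratio 0.50 (95% interval 0.19 to 0.82)), and 5 cells held 46.1% and 29.5% of the Ctsb UMIs, without which the Ctsb ratio there was -0.05. In type 1 DC-like cells Ctsd and Lgmn had log2 ratios of 1.49 and 1.05, from 7 and 21 UMIs of Ctsd and 14 and 31 UMIs of Lgmn. Their Ctsd level, 14.3 and 40.0 CPM, was below the T cell-like 149 and 166. Their Lgmn level, 28.6 and 59.1 CPM, was near the T cell-like 29.3 and 43.2. From so few UMIs neither ratio is read as a difference in expression.

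In neutrophil-like cells, which had a median of 2167 and 2105 UMIs a cell, Ctsd was higher and Ctss lower in Pgd fl/fl LysMCre. Ctsd had 73 UMIs (562 CPM) and 149 UMIs (913 CPM), a log2 ratio of 0.70 (95% interval 0.29 to 1.12). Ctss had 108 UMIs (831 CPM) and 76 UMIs (466 CPM), a log2 ratio of -0.84 (95% interval -1.28 to -0.40), with 5 cells holding 60.2% and 43.4% of the UMIs. Without these 5 cells of each library the Ctss ratio was -0.50, with an interval that covered 0 (95% interval -1.14 to 0.15). With the cell names of the first clustering step the Ctss ratio was -0.21. The 15 macrophage markers summed to 2902 CPM in these cells in Pgd fl/fl against 900.4 CPM in Pgd fl/fl LysMCre, with 2 and 4 of them at 0, and the part of macrophage RNA in the Ctss ratio was not tested. The 11 neutrophil markers summed to 74297 and 81480 CPM, with Ly6g at 0 in Pgd fl/fl. By the rule 1 of the 9 genes was higher, against 5.11% of 3131 genes, and 2 (Ctss and Ctsc) were lower, against 10.9%, with a median over the 9 of -0.35 against -0.15 over all genes tested. The other 6 genes with at least 10 UMIs had intervals that covered 0. Ctsk had 0 UMIs in both libraries, which allows up to 3 counts in each by a one-sided 95% bound.

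The unnamed subclusters showed Ctss in the same direction as the macrophage-like cells. These were the Csf2 cells (128 and 208), the Birc5 cells (71 and 97), led by cell cycle genes, the Il1rl1 cells (45 and 108) and the Igha cells (16 and 12). A UMI of at least 1 of a set of lymphocyte genes was found in 100% of Csf2 and Igha cells, in 100% and 99.1% of Il1rl1 cells and in 54.9% and 67.0% of Birc5 cells, against 22.4% and 24.4% of macrophage-like cells, and no doublet caller was run. The log2 ratio of Ctss was -0.80 in the Birc5 cells (2893 and 1664 CPM), -0.53 in the Csf2 cells (3340 and 2314 CPM), -0.38 in the Igha cells and -0.25 in the Il1rl1 cells. In the Birc5 cells the median log2 ratio was -0.47 over 9 genes against 0.00 over all genes tested, and Ctsd had a log2 ratio of 0.16. The macrophage markers of the Birc5 cells also summed to less, 19843 and 14892 CPM with 1 and 0 of 15 at 0, while their T cell markers summed to 852 and 1431 CPM with 2 and 0 of 13 at 0, and the part of these in the ratios was not tested. Lgmn there had a log2 ratio of -0.58, against 0.13 in the macrophage-like cells.

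T cell-like cells, in which Pgd had 248 and 215 UMIs, showed how the same transcripts differed in cells with a smaller share of them. Of the 9 genes with UMIs in both libraries 8 had ratios above 0 there, with log2 ratios of 0.17 for Ctss, 0.16 for Ctsd and 0.56 for Lgmn, and Ctsl had -0.75 (95% interval -1.16 to -0.36). The share of T cell-like cells with a Ctss UMI was 56.6% and 65.2%, at a median of 4883.5 and 5326 UMIs a cell. Ctss was thus higher in Pgd fl/fl LysMCre in T cell-like cells and lower in macrophage-like cells. Lgmn was higher in T cell-like cells by about as much as in monocyte-like cells, where its log2 ratio was 0.55, and a link between these was not tested.

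Other lysosomal genes were taken from lists of known function. Of 104 listed genes 96 had at least 10 UMIs in macrophage-like cells, of which 6 were higher and 2 lower by the rule, against 5.12% and 3.45% of all genes, with a median log2 ratio of 0.00. Among listed genes with at least 1000 UMIs the largest difference was in Cst3, which encodes cystatin C, the secreted inhibitor of cysteine cathepsins. Cst3 had 21677 UMIs (3874 CPM) in Pgd fl/fl against 13132 UMIs (2614 CPM) in Pgd fl/fl LysMCre, a log2 ratio of -0.57 (95% interval -0.60 to -0.54), so an inhibitor and its target Ctss were both lower. Of the 6 protease inhibitors tested 3 were higher, Serpinb1a (2 and 16 UMIs, named after its values were seen), Serpinb6a and Cst7, the last encoding cystatin F, an inhibitor that acts on cathepsin C, with 35 and 73 UMIs and a log2 ratio of 1.22 (95% interval 0.62 to 1.84). Serpinb6a, a serpin, had 258 and 348 UMIs and a log2 ratio of 0.59 (95% interval 0.35 to 0.82).

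Among 11 other lysosomal peptidases Ctse, the aspartic protease cathepsin E, was higher with 18 and 43 UMIs and a log2 ratio of 1.41, and the median of the list was -0.12. Of 15 lysosomal membrane proteins 0 were higher and 0 lower, with a median of -0.03, and of 17 V-ATPase subunits, which acidify the lysosome, 0 were higher and 0 lower, with a median of 0.04. Of 32 glycosidases, lipases, phosphatases and activators, Arsb (arylsulfatase B, 29 and 47 UMIs) was higher, with a log2 ratio of 0.85, and Smpd1 (acid sphingomyelinase, 42 and 21 UMIs) was lower, with a log2 ratio of -0.84. Of 11 sorting genes Ap1b1, a subunit of the AP-1 adaptor, was higher with 213 and 301 UMIs and a log2 ratio of 0.65. The 4 transcription factors of the MiT/TFE family, which bind E-boxes, had log2 ratios of 0.09 (Tfeb), 0.23 (Tfe3), 0.36 (Tfec) and 0.26 (Mitf), and the interval of each covered 0.

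**Figure D5:**
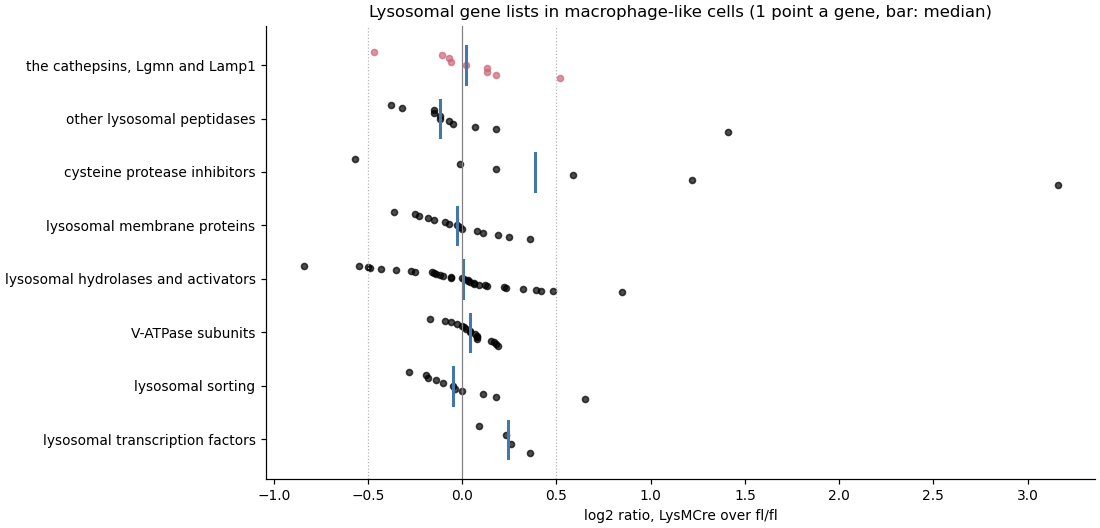
Log2 ratio, Pgd fl/fl LysMCre over Pgd fl/fl, in macrophage-like cells of 9 of the 10 genes (red) and of the genes of 7 other lysosomal lists with at least 10 UMIs (black), 1 point a gene, with list medians as blue bars and dotted lines at 0.5 in either direction. Most points lie within 0.5 of 0; the farthest, Serpinb1a at 3.16, rests on 2 and 16 UMIs.

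In the other classes few listed genes passed the rule, and those named here were chosen after their values were seen. Of 93 tested in monocyte-like cells 5 were higher, Scpep1 (log2 ratio 0.76), Acp5 (0.77), Gnptab (0.85), Atp6v1c1 (0.57) and Serpinb6b (1.72, from 6 and 43 UMIs), and 2 were lower, Npc1 (-0.60) and Slc38a9 (-1.32), against 3.79% and 3.26% of all genes. Of 93 tested in DC-like cells Gla, encoding alpha-galactosidase A, was higher (0.55) and Abca1, a cholesterol exporter, was lower (-1.88, from 22 and 9 UMIs), against 3.73% and 2.76% of all genes. Of 50 tested in neutrophil-like cells Lamp2 (1.41, from 21 and 70 UMIs) and Gla (1.33) were higher, against 5.11% of all genes higher and 10.9% lower. Those lower there included Cst3 (-0.91, from 231 and 155 UMIs), Cd68 (-0.89), Laptm4a (-2.18) and Gusb (-3.24, from 15 and 2 UMIs), in cells whose macrophage markers were lower as given above.

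Across 29 points, the myeloid subclusters of the 2 libraries, each gene was set beside all other genes with at least 200 UMIs by Pearson's correlation of log2 CPM. The points share 2 libraries and the same clustering, so the values are descriptions. Ctss was most like Ms4a7 (0.96), Acp5 (0.95) and Hebp1 (0.94), and Ctsz was most like the same 3 genes (0.95, 0.93 and 0.93), with 0.96 between Ctss and Ctsz. Ctsb was most like Selenop (0.97), Abca1 (0.96) and Stab1 (0.95) and had 0.97 with Lgmn, which was most like Rin2 (0.96), Rnase4 and Stab1 (0.95 each). Ctsl was most like Selenop (0.95), Pf4 and the peptidase gene Ctsa (0.94 each), and Ctsd was most like Fcgr3 (0.95), Timp2 (0.93) and Pla2g7 (0.92). Ctsc was most like Snx5 and Ly86 (0.95 each) and Atp2a2 (0.94), and had 0.46 with Ctsd. Ctsh was most like Tmem176b (0.92), Abhd12 and Npc2 (0.91 each), and Lamp1 was most like Plk2 and Tmem176a (0.88 each) and Dhrs3 (0.87). Ctsk reached 0.54 with Alkbh3, 0.52 with Acvr2a and 0.50 with Dnpep, from 22 UMIs in all and thus with no weight.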

How the data were processed

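Count tables deposited by the authors hold raw counts of UMIs per gene and cell, made with Cell Ranger 6.1.2 on mm10 per the labels, for 2 libraries (3728 and 3014 barcodes). The 12 oligonucleotide features were left out. Cells had to show 500 to 7500 genes with mitochondrial transcripts no higher than 15%, and genes seen in fewer than 3 cells were dropped before clustering. Clustering used Seurat 5.3.0 (R 4.3.3) with 2000 variable genes, 30 components, 20 neighbours and resolution 0.8, without the 10 genes and 104 other lysosomal genes, then again on myeloid cells (15 subclusters). A cluster took the type with the highest mean standardized marker level, among types with at least 3 markers found in at least 25% of its cells. It stayed unnamed where another type had more markers among its 10 leading genes. Myeloid subclusters also needed a marker of their type among those genes. In the first step, which named the T cell-like cells, only shallow clusters needed one. These limits were set after the clusters were seen. UMIs were summed per type and library and given as CPM. Ratios and shares carry exact 95% intervals (conditional binomial, Poisson, Clopper-Pearson) of counting error only, computed in Python 3.11.15 with scipy 1.17.1. Scripts were tested on simulated data. No doublet caller was run. Alternatives were another resolution, a higher gene minimum, lysosomal genes kept in clustering, first-step names, equal weights, other scalings, and leaving out deep cells or cells with lymphocyte UMIs. Positions and promoters came from RefSeq tables of GRCm38.p6. The genes named were all 10, those of each list past the fold in macrophage-like cells with at least 50 UMIs, and the 3 most alike. Other listed genes were named after their values were seen, where few passed. The 10 genes and the lists were chosen with earlier results of these data known. 1 listed gene is not reported here.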

Additional observations from a re-analysis of the deposited data

Results flagged for a closer look

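Some genes had intervals on opposite sides of 0 in different myeloid types. The differences between types were not tested. Ctsb had log2 ratios of 0.13 in macrophage-like and 0.23 in monocyte-like cells and -0.22 in DC-like cells. Ctsc had 0.18 in macrophage-like cells and -1.79 in neutrophil-like cells. The latter came from 11 and 4 UMIs, in at most 5 cells of each library, too few to be read as a difference in expression. Ctsc levels there were 84.7 and 24.5 CPM, against 96.0 and 115 in T cell-like cells. Ctsz had -0.07 in macrophage-like and 0.20 in monocyte-like cells.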

How the results depend on the processing

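With 1 library per genotype, mouse-to-mouse spread was not measured, and shallow neutrophil-like cells limit what their counts can show. No paired analysis was possible because each genotype had 1 library. The median log2 ratio of the 10 genes in macrophage-like cells was 0.08 and ranged from -0.19 to 0.10 over 11 alternatives, with a clear shift only when the unnamed subclusters were added (-0.19, chosen after seeing the data). In monocyte-like cells it was 0.07 (0.01 to 0.22 over 8 alternatives). No monocyte-like cells were named with the lysosomal genes kept in clustering, and equal weighting could not be run for 1 subcluster. In DC-like cells the median was -0.03, 0.17 at resolution 1.6 and 0.16 with at least 1000 genes per cell. Ctss in macrophage-like cells stayed between -0.66 and -0.40 over 11 alternatives, and Ctsd between 0.13 and 0.59, at or past 0.5 in 3 of them. Lgmn in monocyte-like cells was 0.42 to 0.85 over 8. In neutrophil-like cells Ctss was -1.76 to -0.21 and Ctsd 0.57 to 1.12 over 9. Ctsk gave no ratio in DC-like and neutrophil-like cells. Among ratios whose interval left out 0, signs turned for Ctsb in macrophage-like cells (-0.02 with first-step names, -0.16 with the unnamed subclusters added), for Ctsc (-0.10) and Lgmn (-0.13) there with the unnamed added, and in DC-like cells for Ctsb (0.29 at resolution 1.6, 0.14 with at least 1000 genes) and Lamp1 (0.01 at resolution 1.6). With at least 100 UMIs per gene, the share of genes past the fold in either direction was 7.29% in macrophage-like, 8.33% in monocyte-like, 6.26% in DC-like and 30.2% in neutrophil-like cells. The single-gene ratios of all alternatives were set against the counting interval of the ratio first given. In macrophage-like cells values stayed within it in 70 cases and left it in 35, some with a turned sign where the interval had covered 0. The counts were 63 and 14 in monocyte-like, 76 and 11 in DC-like and 70 and 8 in neutrophil-like cells. The turned signs listed above, 4 in macrophage-like and 3 in DC-like cells, also left the interval and are not in these counts. Leaving out the 5 richest cells was also chosen after seeing the data. The causes were not tested.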
